A study of Rattus norvegicus with 18 samples.

Results

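The spinal cord of rats aged 18 months was compared with that of rats aged 6 months, the baseline age of the study. The comparison took the 3 arrays titled as 18-month cord and the 3 titled as 6-month cord, 6 of the 18 arrays in all, and every probe set of the array. The series asked how age alters transcripts of the oculomotor nucleus, a midbrain group of eye-moving motor neurons, and of the spinal cord, with 3 arrays for each tissue at 6, 18 and 30 months. The labels of both groups give no treatment and differ in age. The strain label F344BN, a hybrid of the Fischer 344 and Brown Norway strains, stands on oculomotor arrays, in a description that names both tissues, and no label gives the sex of the animals or the level of the cord. Tissue of 4 animals was combined for each RNA sample, so that n = 3 counts pools, although the study's design text speaks of 4 replicates a group, and p-values measure the spread between pools rather than between animals.

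Microglia are the resident macrophages of the central nervous system: they clear debris, carry receptors for antibody and complement, and can display peptides on class II molecules of the major histocompatibility complex. Adult brain and cord make nearly all of their own cholesterol, mostly for myelin, in a pathway that runs from acetyl-CoA through mevalonate to squalene, and from lanosterol on to cholesterol. Transcription factors of the SREBP family are known to switch the genes of this pathway on when cell sterol is low.

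Values below are signals, the linear intensity of a probe set on an array after each array was brought to the same trimmed mean, and log2 changes are 18 minus 6 months. Of 9482 probe sets above the filter on dim signals, 69 (0.728%) differed between 18 and 6 months in the cord (limma, Benjamini-Hochberg adjusted p under 0.05). Of these, 51 (0.538%) were higher at 18 months and 18 (0.19%) were lower. The change of the 51 lay between 1.32-fold and 4.37-fold, with a median of 1.77-fold, and that of the 18 between 1.33-fold and 2.02-fold, with a median of 1.54-fold. Over all 9482 probe sets the median log2 change was 0.00 (-0.0018), 4692 (49.5%) were positive, and the middle 90% lay between -0.31 and 0.36. The 6 arrays did not overlap between the ages in 1294 probe sets (13.6%), 659 higher (6.95%) and 635 lower (6.7%) at 18 months. They did not overlap in 68 of the 69 called. An unadjusted p under 0.05 was reached by 980 probe sets (10.3%). The called probe sets gave 38 named genes that rose and 16 that fell, while 5 probe sets matched several genes and 8 matched none. Among the 38 genes that rose, 22 belonged to 8 lists of microglial, antigen-presenting, complement, interferon and lysosomal genes. These lists held 7 to 21 measured genes each, beside 9482 probe sets in all. Among the 16 that fell, 9 belonged to 3 lists of sterol and fatty acid synthesis, which held 7, 10 and 21 measured genes. The lists were chosen with earlier results of these data known, so these counts are no independent sign of a theme.

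The count of calls depended on single arrays: leaving out 18-month replicate 2 gave 15, leaving out 18-month replicate 1 gave 19, and 34 were called when 6-month replicate 2 was dropped. Lower calls numbered 3, 2 and 4 in these fits, and dropping 18-month replicate 3 gave 30 of them, against 18 with all arrays. All 69 kept their direction in each of the 6 fits that left out an array. For the 68 whose groups did not overlap, no other direction was possible. Of the 69, 13 were called in every one of these fits. Named genes among the 13 were Lgals3, Gpnmb, RT1-Bb, RT1-Db1, RT1-Da, Fcgr2b, C3, Mpeg1, Ppih and Cyp51.

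The arrays carried markers of nervous tissue and, in Hoxa5 and Hoxd8, of the cord. Gfap, the astrocyte filament, had signals of 10331, 10642 and 12388 at 18 months, against 11091, 10553 and 14116 at 6 months, and Chat, the enzyme that makes acetylcholine in motor neurons, had 438, 316 and 334.5, against 326, 437 and 338. Hoxa5 and Hoxd8, positional genes of the cord, lay between 750.0 and 2106 on all 6 arrays. Hoxc8 and the glycine transporter gene Slc6a5 were too dim for the filter, which takes the mean over both tissues. Slc6a5 was uneven, with 91, 134 and 100 at 18 months, against 207, 98 and 200.5 at 6 months. Skeletal muscle transcripts, foreign to the cord, were uneven: Acta1, the skeletal muscle actin, had 276, 1529 and 503.5 at 18 months, against 2008, 3631 and 253 at 6 months. The 3 arrays richest in the muscle list were 18-month replicate 2 and 6-month replicates 1 and 2. Fits without them, given below, keep 2 arrays at 18 months and 1 at 6 months, replicate 3. After each group's mean was removed, the leading principal component held 27.1% of the variance, and on it 18-month replicate 3 (-13.8) and 6-month replicate 1 (-12.14) stood apart from the other cord arrays of these ages, at 3.19 to 8.95. Ratios of 3' to 5' signal of GAPDH, beta-actin and hexokinase, a sign of RNA quality, overlapped between the ages. Hexokinase had 1.892, 1.669 and 1.975 at 18 months, against 1.933, 2.12 and 1.927 at 6 months. Beta-actin had 1.147, 1.134 and 1.27, against 1.258, 1.005 and 0.98, highest on the 2 arrays that stood apart. In all 3 controls 18-month replicate 3 was the highest of its group, and 6-month replicate 1 was so in beta-actin only. Whether RNA quality set these arrays apart was not tested.

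The largest rises were those of 2 genes of phagocytic cells, Lgals3 and Gpnmb. Lgals3, which encodes galectin-3, a lectin of phagocytic cells, had signals of 2161, 2223 and 1427 at 18 months, against 412, 475 and 419 at 6 months. Its lowest 18-month array, replicate 3, lay far above the highest 6-month array. Lgals3 rose 4.37-fold (log2 change 2.13 ± 0.27, SE; limma, adjusted p = 0.00225), and the change lay between 2.01 and 2.33 in the 6 fits without an array. Gpnmb, a transmembrane glycoprotein of macrophages and microglia, had 1708, 1648 and 795 at 18 months, against 359, 296 and 302 at 6 months. Here too replicate 3 was the lowest of the 18-month arrays and the groups did not overlap (4.11-fold, log2 change 2.04 ± 0.28, limma adjusted p = 0.0026). Without the 3 muscle-rich arrays, the log2 changes were 2.07 for Lgals3 and 1.95 for Gpnmb. In bulk tissue, more cells of a type and more RNA per cell cannot be told apart, here and in the results that follow.

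Both genes stood on a list of phagocyte and lipid-laden macrophage genes, of which 5 of 21 measured members rose and none fell. The others were Grn (log2 change 0.84), which encodes the lysosomal protein progranulin, the annexin Anxa3 (0.60) and Timp2 (0.57), an inhibitor of matrix proteases, with limma adjusted p of 0.00763, 0.0303 and 0.0331. A second probe set of Timp2 differed by 0.31 and did not pass. The median of the list was 0.22, beside -0.0018 over all probe sets, and 16 of 21 members were positive. Over all probe sets 0.538% rose and 49.5% were positive. Vim (0.52), Cd63 (0.29) and S100a4 (0.50) did not pass. Spp1, which encodes osteopontin, had 1917, 1741 and 1907 at 18 months, against 2443, 1859 and 2075 at 6 months, and Apoe had 10031, 9506 and 11173, against 9790, 8268 and 12762. Both overlapped between the ages, with log2 changes of -0.19 and 0.01. Plin2 (0.37), Abcg1 (0.15) and Fabp5 (0.13), which handle lipid, did not pass. The negative members were Spp1, Cd9 (-0.15), Axl (-0.01), Igf1 (-0.21) and Anxa2 (-0.14).

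**Figure D1:**
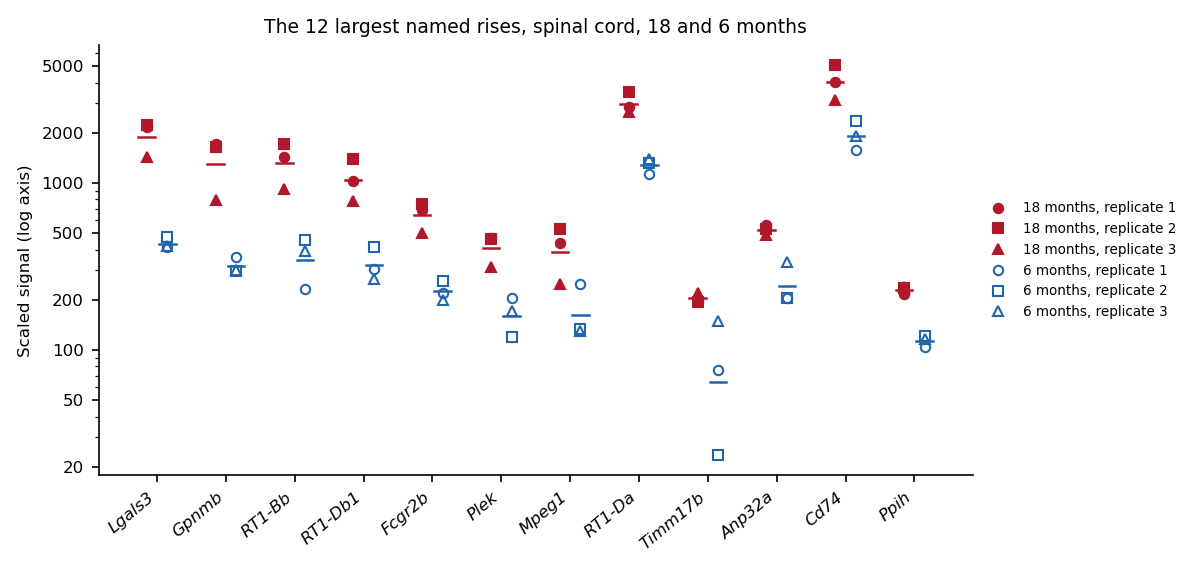
Scaled signal on a log axis for the 12 named genes with the largest rise, on each of the 3 cord arrays at 18 months (filled red) and the 3 at 6 months (open blue), with the geometric mean of each group as a bar. Replicate 3 is the lowest 18-month array in Lgals3, Gpnmb, RT1-Bb, RT1-Db1, Fcgr2b, Plek, Mpeg1, RT1-Da, Anp32a and Cd74, and the groups overlap in Mpeg1 only.

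Genes of class II antigen presentation were the list with the highest median. Of 7 measured members, 4 rose, none fell and all were positive, with a median log2 change of 1.06, beside -0.0018 over all probe sets. Of these, 0.538% rose and 49.5% were positive. RT1-Bb, the beta chain of the rat class II molecule RT1-B, had signals of 1442, 1705 and 924 at 18 months, against 233, 459 and 395 at 6 months. RT1-Db1, a beta chain of RT1-D, had 1029, 1398 and 786, against 305, 414 and 266. RT1-Da, the alpha chain of RT1-D, had 2866, 3539 and 2654, against 1135, 1320.5 and 1401. In all 3 genes every 18-month array lay above every 6-month array, with replicate 2 the highest and replicate 3 the lowest. They rose 3.78-fold, 3.23-fold and 2.34-fold (limma, adjusted p = 0.0026, 0.00343 and 0.0046). Cd74, the invariant chain that class II molecules need for assembly and sorting, had 4019.6, 5099.9 and 3162 at 18 months, against 1581, 2351 and 1918 at 6 months, a rise of 2.09-fold (adjusted p = 0.0303). Unlike the 3 chains, Cd74 did not pass without 18-month replicate 1 or 2 or without 6-month replicate 1 or 3, with adjusted p between 0.0767 and 0.211.

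The alpha chain RT1-Ba had 909, 1327 and 799.6 at 18 months, against 652, 334 and 674 at 6 months. Its groups did not overlap, and it did not pass (log2 change 0.91, limma adjusted p = 0.141). RT1-DMa (0.14) and RT1-DMb (0.20), which encode the class II molecule that edits bound peptides, overlapped between the ages. The probe set of RT1-Db1 carries the suffix that Affymetrix gives to probes shared by related transcripts, so it may read other class II beta chains too. Without the muscle-rich arrays the log2 changes were 1.55 for RT1-Bb, 1.76 for RT1-Db1, 0.98 for RT1-Da and 0.89 for Cd74. With the muscle list as a covariate they were 1.95, 1.88, 1.23 and 1.13, and all 4 passed (limma, adjusted p between 0.00536 and 0.0442).

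Promoters of the 3 class II chains that rose are shown because these genes moved together and because the group is known for a shared promoter module that includes an inverted CCAAT box. Each line gives the 250 bases before the annotated start, 5' to 3' on the strand of the gene, from RefSeq on GRCr8, with CCAAT on either strand (ATTGG on the other) in capitals. RT1-Bb lies at chr20:4604119-4604368 (minus strand), RT1-Db1 at chr20:4560163-4560412 (minus strand) and RT1-Da at chr20:4515165-4515414 (plus strand).
RT1-Bb: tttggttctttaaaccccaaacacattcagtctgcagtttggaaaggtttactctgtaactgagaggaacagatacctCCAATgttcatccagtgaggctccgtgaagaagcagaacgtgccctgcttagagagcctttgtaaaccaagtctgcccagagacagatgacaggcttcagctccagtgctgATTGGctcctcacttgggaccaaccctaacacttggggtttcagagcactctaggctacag
RT1-Db1: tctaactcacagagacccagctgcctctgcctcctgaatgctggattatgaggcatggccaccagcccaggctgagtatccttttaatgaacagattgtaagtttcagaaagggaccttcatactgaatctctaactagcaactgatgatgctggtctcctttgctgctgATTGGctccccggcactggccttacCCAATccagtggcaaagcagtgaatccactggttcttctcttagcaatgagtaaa
RT1-Da: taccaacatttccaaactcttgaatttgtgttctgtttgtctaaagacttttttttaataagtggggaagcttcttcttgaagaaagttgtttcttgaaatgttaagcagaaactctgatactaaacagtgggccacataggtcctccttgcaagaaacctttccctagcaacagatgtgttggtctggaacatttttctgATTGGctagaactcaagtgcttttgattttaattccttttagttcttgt
The match nearest the start lay 61 bases before it in RT1-Bb, 55 in RT1-Db1 and 49 in RT1-Da. It was inverted in RT1-Bb and RT1-Da but forward in RT1-Db1, whose inverted match lay at 80. Cd74, the other class II gene that rose, held a single match, forward and 189 bases before its start, and is not printed. All 6 class II genes with a promoter in the table held CCAAT on either strand (100%), against 9382 of 27457 promoters (34.2%). Among tested genes with a promoter, 2080 of 5851 held it (35.5%). Of the 31 named genes that rose and had a promoter, 14 held it (45.2%). These are matches of letters, and binding was not measured.

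In the list of class I molecules and their peptide loading, 1 of 10 measured members rose, Psmb8, a catalytic subunit of the immunoproteasome, with 326, 362 and 320.3 at 18 months, against 217, 191 and 173 at 6 months (log2 change 0.80, limma adjusted p = 0.0331). Psme1, a proteasome activator subunit, had 0.58 (adjusted p = 0.0522), RT1-S3 had 0.37 and RT1-CE16 had 0.55, and none of these passed. The list's median was 0.19 and 7 of 10 members were positive, against 49.5% of all probe sets, of which 0.538% rose. Psmb8 passed in 2 of the 6 fits without an array, and did not pass without 18-month replicate 1 or 2 or 6-month replicate 2 or 3 (adjusted p between 0.0941 and 0.19).

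Of 15 measured members of the list of receptors for antibody and their myeloid partners, 5 rose, none fell and 10 did not pass. All 15 were positive, with a median of 0.53, while of all probe sets 0.538% rose and 49.5% were positive. Fcgr2b, the inhibitory receptor for IgG, had signals of 690.1, 753 and 505 at 18 months, against 219.5, 260.0 and 200 at 6 months, a rise of 2.84-fold (log2 change 1.51 ± 0.22, limma adjusted p = 0.0026). Fcgr3a, an activating IgG receptor, had 554, 790.3 and 488, against 388, 366 and 360.1. Fcer1g, the signalling chain that activating Fc receptors share, had 3187, 3255 and 2650.2, against 1743, 2057 and 1808. No array of 1 age entered the range of the other in these 3 genes, and 18-month replicate 3 was the lowest of its group in each. Fcer1g and Fcgr3a had the same log2 change of 0.69, with adjusted p of 0.00502 and 0.0462.

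Plek, which encodes pleckstrin, a protein kinase C substrate of blood-lineage cells, had 466, 465 and 315 at 18 months, against 204, 119 and 172 at 6 months (log2 change 1.34 ± 0.22, limma adjusted p = 0.0053). Rac2, a small GTPase of the same lineage, had 0.76 (adjusted p = 0.0474). Cyba (0.61), a subunit of the phagocyte oxidase, and Arhgdib (0.44) did not pass. Fcgr2b passed in all 6 fits without an array and Plek in 4, losing its call without 18-month replicate 1 or 2 (adjusted p of 0.0518 and 0.0553). Fcer1g lost it without 18-month replicate 2 (0.0546), while Rac2 and Fcgr3a passed only without 18-month replicate 3. Without the muscle-rich arrays, the log2 change was 1.56 for Fcgr2b, 1.15 for Plek and 0.69 for Fcer1g.

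Genes that identify microglia were positive in all 15 measured members, with a median of 0.51, and 4 of them rose. The shares over all probe sets were 49.5% positive and 0.538% risen. Mpeg1, a pore-forming protein of macrophages, was measured by 2 probe sets. The brighter had signals of 2416, 2868 and 1658 at 18 months, against 1148, 1145 and 1115 at 6 months (log2 change 0.99, limma adjusted p = 0.00404). The dimmer had 438, 531 and 249, against 250.5, 133 and 130.2 (1.25, adjusted p = 0.0331), and was the single called probe set whose groups overlapped, with 18-month replicate 3 just under 6-month replicate 1. Cd53, a tetraspanin of leukocytes (0.89, adjusted p = 0.00648), P2ry12, the purine receptor of resting microglia (0.63, adjusted p = 0.0462), and Irf8, a transcription factor of the microglial lineage (0.70, adjusted p = 0.0479), rose too. P2ry12 had 1102, 1009.8 and 1131 at 18 months, against 787, 594 and 721 at 6 months, and its other probe set differed by 0.58 without passing.

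Tyrobp (0.74, adjusted p = 0.0527), Csf1r (0.51, 0.0683) and Aif1 (0.79, 0.0997), further microglial genes, did not pass, although their groups did not overlap. Aif1 had 498, 555 and 519 at 18 months, against 324, 303 and 281 at 6 months. Cx3cr1, the fractalkine receptor, overlapped with 421, 595 and 397, against 437, 342 and 368. Irf8 passed in none of the 6 fits without an array (adjusted p between 0.0569 and 0.221), P2ry12 only without 6-month replicate 1, and Cd53 in 4, losing its call without 18-month replicate 1 or 2. The brighter Mpeg1 probe set passed in all 6.

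Complement had 2 rises among 7 measured members, all positive, with a median of 0.78. Rises made up 0.538% of all probe sets, and 49.5% were positive. C3, the central protein of the cascade, had signals of 2912, 3498 and 2359 at 18 months, against 1541, 1573 and 1447 at 6 months. The 6-month arrays lay close together and well below the 18-month arrays, and C3 rose 1.90-fold (log2 change 0.93 ± 0.13, limma adjusted p = 0.0026). C1qa, a chain of the recognition molecule C1q, had 2575, 3289.5 and 2329, against 1431, 1686 and 1609.9 (0.78, adjusted p = 0.0253). C1qb had 1035, 1517 and 1001, against 709, 674 and 591, and did not pass (0.83, adjusted p = 0.0997). The third chain, C1qc, had 0.53 and overlapped, with 18-month replicate 3 inside the 6-month range. C1s (0.83), Serping1 (0.78), the inhibitor of the first complement proteases, and Clu (0.14) did not pass. C3 passed in all 6 fits without an array, and C1qa only without 18-month replicate 3.

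Interferon-stimulated genes gave no call among 12 measured members, with 10 positive and a median of 0.24. Those with the smallest p were Ifitm3 (0.68), Rsad2 (0.73), Irf7 (0.63) and Parp9 (0.54), with limma adjusted p of 0.0674, 0.0735, 0.0913 and 0.179. Rsad2 had 251, 282 and 312 at 18 months, against 141, 217 and 159 at 6 months, without overlap. Among 21 lysosomal genes 1 rose, Ctse, an aspartic protease of immune cells, with 353, 366 and 321 at 18 months, against 160.4, 218 and 153 at 6 months (0.98, adjusted p = 0.00577). Ctsz (0.82, adjusted p = 0.0663), Npc2 (0.39), Ctsh (0.34) and Glb1 (0.43) did not pass, and the list's median was 0.18 with 17 of 21 positive. Beside both lists, 0.538% of all probe sets rose and 49.5% were positive.

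**Figure D2:**
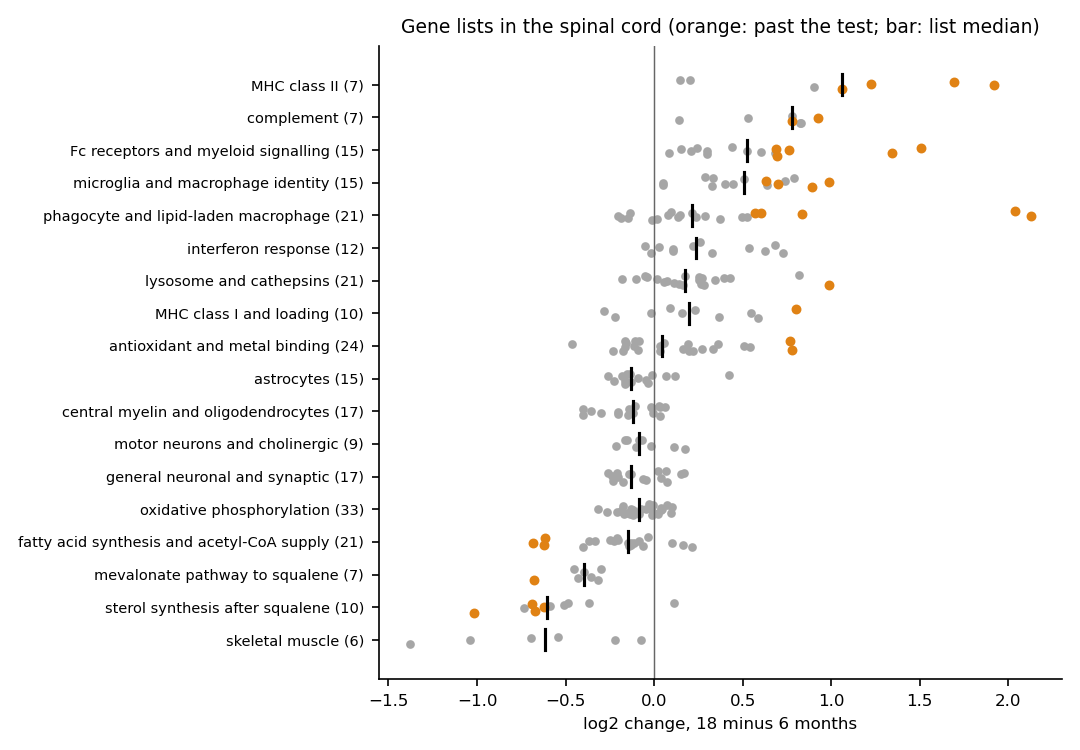
Log2 change, 18 minus 6 months, of the measured members of 18 gene lists in the cord, with the number of members in brackets, members past limma's test in orange and the list median as a bar. The class II list has the highest median (1.06), the skeletal muscle list (-0.62) and the sterol list after squalene (-0.61) the lowest, and the neuronal, astrocyte and oxidative phosphorylation lists hold no orange point.

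Other named rises lay outside these lists. Timm17b, a subunit of the translocase of the mitochondrial inner membrane, had signals of 201, 193 and 219 at 18 months, against 76.1, 23.4 and 148 at 6 months. Its 6-month arrays were wide apart, and the lowest lay under the floor of 66.4, to which it was raised in the fit (log2 change 1.17, limma adjusted p = 0.0339). Anp32a, an acidic nuclear phosphoprotein, had 565, 532 and 487, against 206, 204 and 338 (1.12, adjusted p = 0.036). In both genes the muscle-poor array, replicate 3, was the highest at 6 months, and without the muscle-rich arrays the changes were 0.50 and 0.63. Timm17b lost its call in every fit without an array except that without 6-month replicate 3 (adjusted p between 0.0703 and 0.15), and Anp32a lost it without 18-month replicate 1 or 2 or 6-month replicate 1 or 2 (0.102 to 0.17). Ppih, a cyclophilin of the spliceosome, had 216, 235 and 237 at 18 months, against 104, 122 and 116 at 6 months (1.01, adjusted p = 0.00502). Its arrays agreed closely within each age, and it passed in all 6 fits without an array.

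Golm1, a Golgi membrane protein, rose by both of its probe sets, at 0.97 and 0.64 on the log2 scale (limma, adjusted p = 0.00468 and 0.0251). Lgals3bp, a secreted glycoprotein that binds galectin-3, had 615, 820.5 and 426 at 18 months, against 338, 335 and 272 at 6 months (0.93, adjusted p = 0.0127). Bmpr2, a receptor for bone morphogenetic proteins, had 523, 445 and 402, against 243, 208 and 298 (0.88, adjusted p = 0.0187). None of these 3 genes overlapped between the ages. Of 24 antioxidant and metal-binding genes 2 rose, against 0.538% of all probe sets. They were Gpx3, a secreted glutathione peroxidase (0.78, adjusted p = 0.0192), and Mgst1, a microsomal glutathione transferase (0.77, adjusted p = 0.00648), against a list median of 0.05. The remaining named rises were Fxyd5 (0.69), Rin2 (0.65), Efcab14 (0.64), Tmem176a (0.58), the splicing factor Prpf39 (0.57), Pld4 (0.57) and Zfp664 (0.45), with adjusted p between 0.022 and 0.0483.

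Enzymes of cholesterol synthesis lay lower at 18 months. Among 10 measured enzymes that act after squalene, 4 fell, none rose and 9 were negative. The median was -0.61, beside -0.0018 over all probe sets, of which 0.19% fell and 49.5% were positive. Lss, which closes squalene epoxide into lanosterol, had signals of 648, 697 and 787 at 18 months, against 1193, 1159 and 1076 at 6 months. Sqle, squalene epoxidase, had 961, 962 and 947, against 1343, 1503 and 1590.2. Each lay lower on every 18-month array than on any 6-month array, by 1.61-fold for Lss (limma, adjusted p = 0.00548) and 1.54-fold for Sqle (adjusted p = 0.0188). Ebp, the sterol isomerase, had 236, 154 and 124 at 18 months, against 304, 461 and 266 at 6 months, and fell by 1.02 on the log2 scale (adjusted p = 0.0462), the largest fall of a named gene. Msmo1, a methyl sterol oxidase, had 2149, 1900.4 and 2897, against 3980.1, 4108 and 2920.4 (-0.67, adjusted p = 0.0462). For Msmo1 the margin was thin: replicate 3 of 18 months lay just under replicate 3 of 6 months.

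Cyp51, lanosterol demethylase, was measured by 2 probe sets. The dimmer had 712, 681 and 725 at 18 months, against 1112, 1258 and 970.5 at 6 months, and fell by 0.65 (limma, adjusted p = 0.00468). It passed in all 6 fits without an array. The brighter, which stands for the gene in the list, had 1772, 1669 and 2516, against 3164, 3300.2 and 2411. It did not pass (-0.59, adjusted p = 0.0632), and 18-month replicate 3 lay inside the 6-month range. Tm7sf2 (-0.74), Dhcr7 (-0.51) and Sc5d (-0.48), a pair of reductases and a desaturase of the same route, did not pass (adjusted p between 0.0663 and 0.0997) and did not overlap between the ages. Lbr, a sterol reductase that is also a nuclear envelope protein, was the only positive member, at 0.11.

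Upstream, in the mevalonate pathway, 1 of 7 measured enzymes fell and none was positive, against 0.19% and 49.5% of all probe sets. The list's median was -0.39. Acat2, which joins the acetyl-CoA units that enter the pathway, had 611, 682 and 756 at 18 months, against 1087, 1085 and 1089.9 at 6 months (-0.68, limma adjusted p = 0.0244). Its 6-month arrays were almost equal and the 18-month arrays all lay well below them. Fdps (-0.45), Mvk (-0.43), Pmvk (-0.39) and Idi1 (-0.36) did not pass. Taken over both lists, 16 of 17 enzymes were negative and 12 did not overlap between the ages, all 12 lower at 18 months, against 6.7% of all probe sets lower without overlap.

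**Figure D3:**
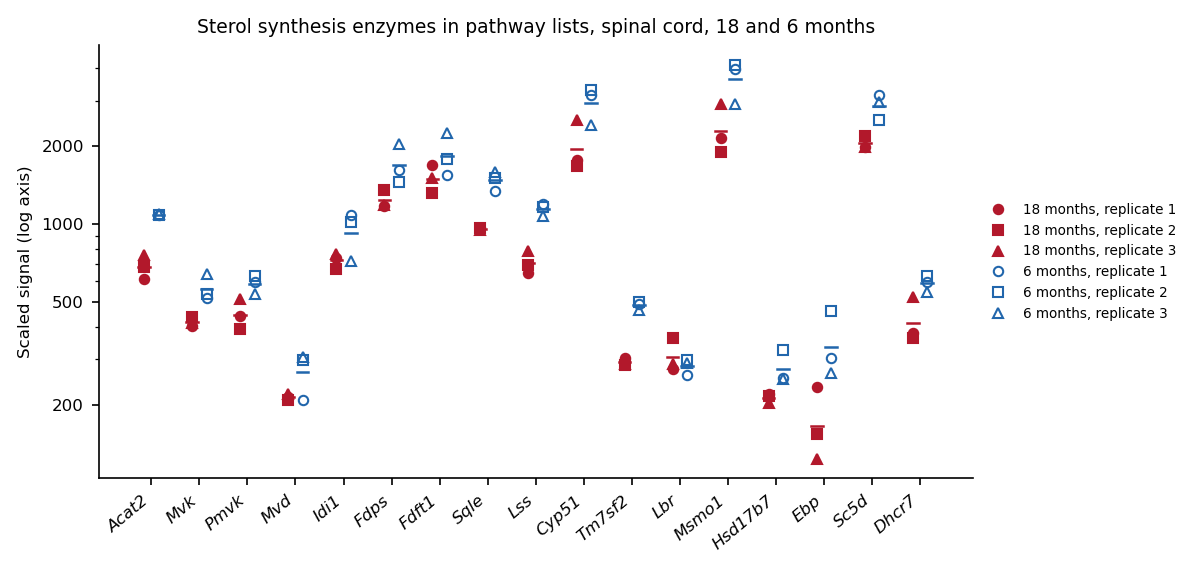
Scaled signal on a log axis for the 17 measured enzymes of sterol synthesis in pathway order, on each of the 3 cord arrays at 18 months (filled red) and the 3 at 6 months (open blue), with geometric means as bars. Cyp51 is shown by its brighter probe set; the 18-month mean is the lower in all genes but Lbr, and the groups overlap in Mvd, Idi1, Fdft1, Cyp51 and Lbr.

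Genes that supply acetyl-CoA and make fatty acids gave 3 falls among 21 measured members. Falls made up 0.19% of all probe sets, and 49.5% were positive. Acss2, which makes acetyl-CoA from acetate, had 1171, 1325 and 1179.9 at 18 months, against 1710.5, 2099 and 1846 at 6 months (-0.62, limma adjusted p = 0.00607). Aacs, which activates acetoacetate for lipid synthesis, had 321, 294 and 381, against 548, 575 and 413 (-0.62, adjusted p = 0.038). Scd, which desaturates stearoyl-CoA, had 526, 476 and 593, against 861, 1054 and 681 (-0.69, adjusted p = 0.0483). The groups did not overlap in any of the 3, and in Aacs and Scd the highest 18-month and the lowest 6-month array were both replicate 3. Thrsp (-0.40), Acly (-0.21), Elovl6 (-0.34) and Slc25a1 (-0.37) did not pass, 18 of 21 members were negative, and the list's median was -0.15.

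Srebf1, which encodes the SREBP factor best known for fatty acid synthesis, went the other way. It had 1278, 1449 and 1300.0 at 18 months, against 788, 821 and 881 at 6 months (log2 change 0.69, limma adjusted p = 0.00648). Its other probe set differed by 0.39 and did not pass. It was the 1 rise among 7 measured genes of sterol sensing and transport, where Srebf2, the SREBP gene best known for cholesterol synthesis, had -0.29 and Insig1 had -0.39, both overlapping. Srebf1 passed in 5 of the 6 fits without an array and not without 18-month replicate 2 (adjusted p = 0.0708).

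The sterol and fatty acid results changed to unequal degrees when the 3 muscle-rich arrays were left out. That leaves 2 arrays at 18 months and 1 at 6 months, replicate 3. Muscle content and that lone array cannot be told apart in this fit. Without these 3 arrays the log2 change was -0.74 for Sqle, -0.68 for Acat2, -0.65 for Acss2, -0.59 for Lss, -0.64 for Ebp and -0.43 for Cyp51. It was -0.23 for Msmo1, -0.29 for Scd and -0.24 for Aacs, each under 0.6 of the change with all arrays. In these 3 genes replicate 3 was the lowest of the 6-month arrays. With the muscle list as a covariate, Lss (adjusted p = 0.0242), Cyp51 (0.0237), Sqle (0.0286) and Acss2 (0.0286) passed, while Acat2 (0.0574), Ebp (0.126), Msmo1 (0.146), Aacs (0.123) and Scd (0.152) did not. Acss2 and Lss passed in 5 of the 6 fits without an array, and not without 18-month replicate 1 (adjusted p = 0.0527 for each). Sqle, Ebp, Msmo1, Aacs and Scd passed in 2 of the 6, and Acat2 only without 18-month replicate 3 (0.0153).

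Promoters of 4 sterol enzymes that fell are shown for comparison with the class II genes, in the same layout, with CCAAT on either strand in capitals. Cyp51, at chr4:30991443-30991692 (plus strand), held none, and neither did Acat2, which is not printed. Lss lies at chr20:12118231-12118480 (minus strand), Msmo1 at chr16:29746863-29747112 (plus strand) and Ebp at chrX:16971212-16971461 (plus strand), from RefSeq on GRCr8.
Lss: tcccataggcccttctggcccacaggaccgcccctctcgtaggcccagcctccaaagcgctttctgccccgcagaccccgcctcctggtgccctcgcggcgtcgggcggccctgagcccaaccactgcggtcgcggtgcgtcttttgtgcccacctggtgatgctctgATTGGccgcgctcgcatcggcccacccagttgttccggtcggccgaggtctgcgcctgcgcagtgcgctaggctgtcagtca
Msmo1: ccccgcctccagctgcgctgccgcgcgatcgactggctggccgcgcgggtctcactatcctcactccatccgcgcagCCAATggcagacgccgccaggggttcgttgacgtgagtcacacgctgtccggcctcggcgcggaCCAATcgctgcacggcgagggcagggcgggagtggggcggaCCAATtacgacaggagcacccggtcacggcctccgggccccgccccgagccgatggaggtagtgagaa
Ebp: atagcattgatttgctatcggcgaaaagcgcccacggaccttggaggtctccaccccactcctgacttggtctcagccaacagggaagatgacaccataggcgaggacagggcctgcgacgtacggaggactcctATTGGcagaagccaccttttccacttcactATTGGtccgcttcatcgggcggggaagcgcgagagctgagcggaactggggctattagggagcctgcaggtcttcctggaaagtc
Cyp51: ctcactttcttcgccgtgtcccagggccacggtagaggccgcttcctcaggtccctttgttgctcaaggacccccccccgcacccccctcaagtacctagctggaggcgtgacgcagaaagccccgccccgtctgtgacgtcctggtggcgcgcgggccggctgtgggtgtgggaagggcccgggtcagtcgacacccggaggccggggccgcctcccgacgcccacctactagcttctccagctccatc
CCAAT stood in 7 of 9 promoters of the enzymes after squalene (77.8%) and in 4 of 5 of the mevalonate pathway (80.0%). Sqle, Pmvk and Fdft1 had no promoter in the table. The share was 34.2% of all 27457 promoters and 35.5% of the 5851 tested genes with a promoter. Of the named genes that fell, 7 of 14 held it (50%). TCACNCCAC, a form of the sterol regulatory element, was found on either strand in none of these 14 sterol promoters and in 271 of 27457 (0.987%). That search covered these letters in these windows only.

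Other named falls belonged to no lipid list. Limk1, a kinase that regulates actin filaments through cofilin, had 330.4, 308 and 452 at 18 months, against 557, 574 and 580.3 at 6 months (-0.67, limma adjusted p = 0.0251). Col6a1, a chain of type VI collagen, had 289.5, 303 and 264, against 366, 532 and 438 (-0.63, adjusted p = 0.0465). Mrpl37, a mitochondrial ribosomal protein, had 311, 366 and 330.2, against 519, 535 and 470.1 (-0.60, adjusted p = 0.0251). Although no array of these 3 genes crossed between the ages, the other and brighter probe set of Mrpl37 differed by -0.01. Gnb2, a G protein subunit, fell by 0.53 with its dimmer probe set and differed by 0.13 with the brighter, which did not pass. Mvb12b fell by 0.48, Mpnd fell by 0.45 and the splicing factor Prpf19 fell by 0.41, with adjusted p between 0.0331 and 0.0434. Limk1 passed in 2 of the 6 fits without an array, Mrpl37 in 2 and Col6a1 in 1, while Mpnd passed in none.

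Lists of structural genes of the cord held no call. Of all probe sets 0.728% were called, a share that lists of this size can meet without a call. None of 17 genes of central myelin passed, with a median of -0.12 and 4 positive, against 49.5% positive of all probe sets. Mog, a surface protein of the myelin sheath, had 2847, 2657 and 3397 at 18 months, against 3884, 4176 and 3636 at 6 months (-0.40, limma adjusted p = 0.0769), and Ugt8, which makes the lipids of myelin, had -0.40 (adjusted p = 0.28). These 2 genes did not overlap between the ages. Mbp, myelin basic protein, overlapped, with 11529, 12075 and 16961 at 18 months and 17664, 11786 and 21101 at 6 months. Of 15 astrocyte genes, 9 motor neuron genes, 17 neuronal and synaptic genes and 33 genes of oxidative phosphorylation none passed, with medians of -0.13, -0.08, -0.13 and -0.08. Syp (-0.23), Nefl (-0.22) and Atp5f1a (-0.32) had the smallest p of the neuronal, motor neuron and oxidative lists, and Ndrg2 (-0.26) that of the astrocyte list.

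Skeletal muscle transcripts differed widely between pools of the same age. The list's 34 genes on the array had a summed signal of 6346, 11671 and 8339 at 18 months, against 13499, 21611 and 7307 at 6 months. In 27 of 34 genes 6-month replicate 2 was the highest of the 6 arrays. In 29 of 34, replicate 2 was the highest of the 18-month arrays, and in 29 of 34, replicate 3 was the lowest at 6 months. Ckm, the creatine kinase of muscle, had 115, 688 and 277 at 18 months, against 680, 1227 and 111 at 6 months. Atp2a1, the calcium pump of fast muscle, had 119, 773 and 199, against 898, 1978 and 182. In both, as in Acta1, the 3 brightest arrays were 18-month replicate 2 and 6-month replicates 1 and 2. Myh1, a myosin heavy chain, did not follow it, at 2051, 2270 and 2934 against 2602, 2177 and 2798.

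Of the 34 muscle genes 6 passed the filter, and none of these was called, with a median of -0.62. The filter takes the mean over all 18 arrays, both tissues included. It dropped genes that were bright on some cord arrays, such as Myl1 (73 to 1388) and Tnni2 (87 to 966). The ranking of muscle-rich arrays rests on the 6 kept. Of these, Myh1 and Pygm varied little, with the highest array at 1.43 and 1.47 times the lowest. Atp2a1 had -1.38 (limma, adjusted p = 0.464), Acta1 had -1.04 (0.624) and Ckm had -0.69 (0.739), all with overlapping groups. Among markers of other neighbouring tissues, Ttr, of the choroid plexus, overlapped between the ages, with 115, 137 and 148.5 at 18 months, against 133, 137 and 201 at 6 months. In the Schwann cell and nerve root list, Pmp22 (-0.34) and Scn7a (0.31) overlapped and did not pass (limma, adjusted p = 0.327 and 0.752). Prx, of this list and too dim for the filter, had 330, 190 and 178, against 298, 284 and 528. Cdh1, also too dim, had 383, 376 and 179, against 88, 117 and 201. Egr2 and Drp2 varied less, with the highest array at 1.63 and 1.66 times the lowest. Cd3d, of T cells, and Bglap, of bone, lay under the floor on all 6 arrays, where differences were not read. Hbb, the beta globin of red cells, had 8710, 11986 and 17852 at 18 months, against 13399, 10872 and 11785 at 6 months, the highest on 18-month replicate 3.

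**Figure D4:**
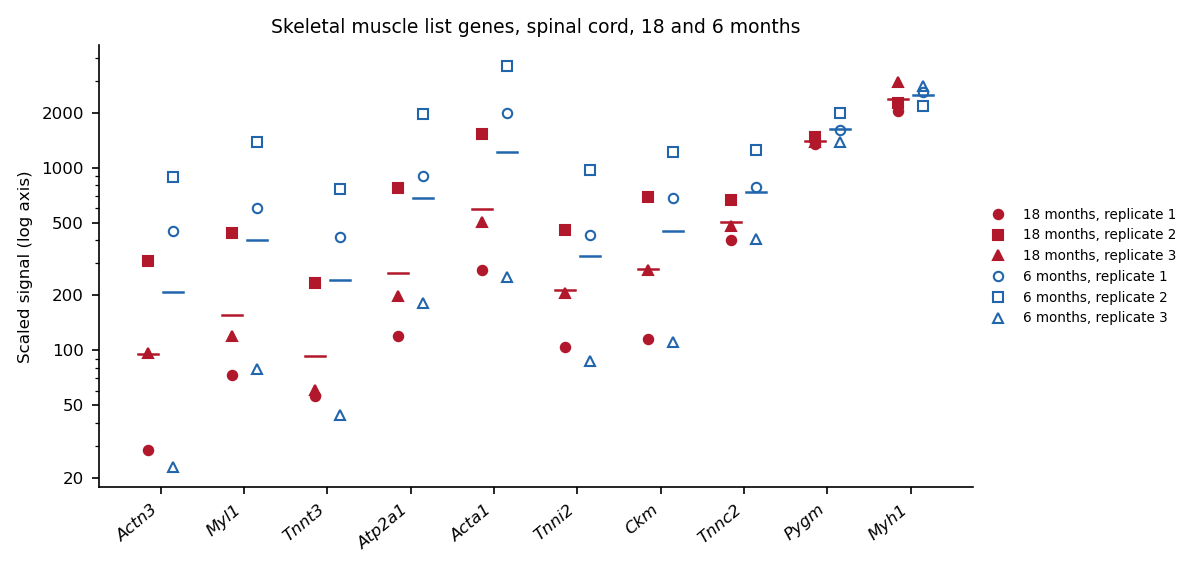
Scaled signal on a log axis for 10 genes of the skeletal muscle list, ordered by the ratio of the highest to the lowest of the 6 arrays, at 18 months (filled red) and 6 months (open blue), with geometric means as bars. Acta1 spans 253 to 3631; replicate 2 is the highest at each age except in Myh1.

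Without the 3 muscle-rich arrays, which leaves 2 arrays at 18 months and 1 at 6 months and assumes that the lone array varies like the others, limma called 3 probe sets, none of them among the 69. All 69 kept their direction, and 63 had an unadjusted p under 0.05, as did 1076 of all 9482 probe sets in that fit. The 69 were chosen with the remaining arrays among the data, so that these counts are no independent check. Of the 38 named rises, 29 kept at least 0.8 of their log2 change, as did 10 of the 16 named falls. Changes under 0.6 of the full value were those of Timm17b, Anp32a, Msmo1, Scd and Aacs. With the muscle list as a covariate 51 probe sets were called, 39 higher and 12 lower, with 24 of the 38 rises and 5 of the 16 falls among them.

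**Figure D5:**
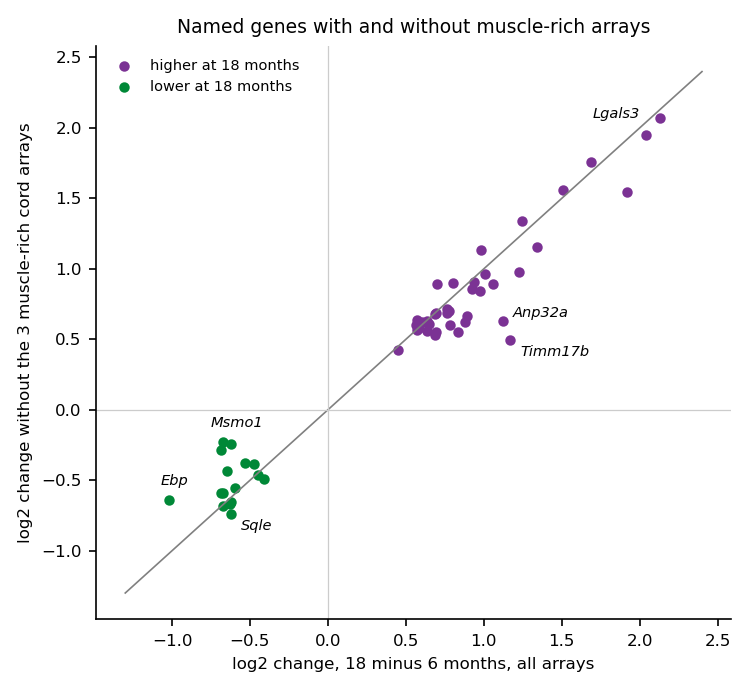
Log2 change, 18 minus 6 months, of the 38 named genes that rose (purple) and the 16 that fell (green), with all arrays on the horizontal axis and without the 3 muscle-rich cord arrays on the vertical axis; the line marks equal values. Lgals3 lies near the line (2.13 and 2.07), while Timm17b (1.17 and 0.50) and Msmo1 (-0.67 and -0.23) lie nearer 0 on the vertical axis.

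The same contrast of ages in the oculomotor nucleus called no probe set of 9482, and no difference between the tissues passed either (limma, 481 probe sets, 5.07%, at an unadjusted p under 0.05). No change was therefore shown to be particular to the cord. Of the 51 probe sets higher in the cord 42 were positive in the oculomotor nucleus, against 49.1% of all probe sets, and 13 of the 18 lower were negative there. The arrays of the tissues are separate, and no label says whether their pools shared animals. C3 had a log2 change of 0.93 in the cord and 0.65 in the oculomotor nucleus, Mpeg1 0.99 and 0.62, RT1-Da 1.23 and 0.53, and Cd74 1.06 and 0.57. Lgals3 had 2.13 in the cord and -0.03 in the oculomotor nucleus, Mgst1 0.77 and -0.05, and Ppih 1.01 and -0.07, with adjusted p of the difference of 0.2, 0.758 and 0.758. Lss had -0.69 and -0.02, Sqle -0.62 and -0.14, and Acss2 -0.62 and -0.22.

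Cord arrays at 30 months show where the levels of 18 months stood later; both sets of changes use the 18-month arrays, so they are given side by side only. Mean signals of Lgals3 were 435 ± 34.6 at 6, 1937 ± 443 at 18 and 1540.5 ± 832 at 30 months (SD, n = 3 each). RT1-Da averaged 1286 ± 137 at 6, 3020.1 ± 462 at 18 and 2939 ± 921 at 30 months. For Lss the means were 1143 ± 59.9 at 6, 711 ± 70.5 at 18 and 778 ± 64.8 at 30 months. Other called genes, picked here after their values were seen, lay nearer to 6 months at the last age: Acat2 averaged 1087 ± 2.27 at 6, 683 ± 72.5 at 18 and 945 ± 175 at 30 months. Rac2 averaged 253 ± 21.7 at 6, 438 ± 110.3 at 18 and 301 ± 27.6 at 30 months. Of all 9482 probe sets limma called 1 (0.0105%) between 30 and 18 months in the cord, and 203 (2.14%) had an unadjusted p under 0.05. It was Limk1, which averaged 570.3 ± 12.01 at 6, 363 ± 77.1 at 18 and 662 ± 39.8 at 30 months (log2 change 0.88, 30 minus 18 months, adjusted p = 0.0305).

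The study's own rule asked for consistent pairwise differences and an average change above 1.70-fold. Taken as all 9 pairings of an 18-month with a 6-month array going the same way, and without the detection and difference calls, which are not used here, it was met by 50 probe sets (0.527%). Of these 46 were higher (0.485%) and 4 lower (0.0422%) at 18 months, and 32 were also called by limma. Ebp was the 1 sterol enzyme past it. Past the rule but not called by limma were RT1-Ba, C1qb, C1s, Aif1, Ctsz and Mertk, a receptor for the uptake of dead cells, and Xylt2, Nfasc, Scaf1, Pdk2, Plcb3, Zfp414, Cp and Slc3a1, the last of them lower at 18 months.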

How the data were processed

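Total RNA of rat oculomotor nucleus and spinal cord was measured on 18 Affymetrix RA230 arrays. The deposited intensity values are linear probe set signals made by the authors with Microarray Suite 5.0, per the submitters' processing notes. The labels name Cy3 and Cy5, while the design text describes biotin-labelled samples on single-colour chips, and the arrays were read as single-colour. Each array was scaled to a common trimmed mean (2% trimmed), raised to a floor at the pooled 20th percentile (66.4) and put on the log2 scale. Probe sets with a mean log2 over all 18 arrays above the pooled 40th percentile were kept, 9482 of 15923. Limma 3.58.1 in R 4.3.3 fitted 6 group means over the 18 arrays with a mean-variance trend, and p-values were adjusted over all kept probe sets by the Benjamini-Hochberg method. The fit was tested on simulated data. Genes came from GEO's platform annotation, updated through RefSeq: 12783 probe sets matched 1 gene, 312 several and 2771 none. Sequences came from RefSeq.

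Named genes were all called probe sets matching 1 gene, with array values for the 12 largest rises and falls, and up to 4 further members of each list described, by smallest p. The members and the lists were chosen with earlier results of these data known. Alternatives covered normalization, floor, filter, variance model, arrays in the fit, blocks, muscle transcripts and left-out replicates. The number of arrays limits the precision.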

Additional observations from a re-analysis of the deposited data

How the results depend on the processing

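Each named gene kept its direction under every alternative that tested it. The stricter filter tested 42 of the 54 and the fit without a floor 53. In fits that only left arrays out, groups without overlap could give no other direction. The median change over all probe sets lay between -0.0114 and 0.0047. Counts of called probe sets moved with the arrays in the fit: the 9 cord arrays alone gave 15 (13 higher, 2 lower) and the 6 arrays of the comparison alone gave 8 (8 higher, 0 lower), against 69 (51 higher, 18 lower) with all 18. Fewer arrays leave fewer residual degrees of freedom, and the estimate of the spread then rests on other arrays. Which of these moved the counts was not tested. Without the 3 muscle-rich cord arrays 3 were called (3 higher, 0 lower), and 173 passed the study's rule, which then rests on fewer pairings. A block for the 4 arrays apart on the leading component gave 127 calls (90 higher, 37 lower). An adjusted p under 0.1 gave 134 (99 higher, 35 lower). Array weights gave 1 call for the difference between tissues, against 0. The study's rule was met by 113 probe sets without the filter and by 19 with an average fold above 2. Leaving out each replicate in turn gave 15 to 100 calls (12 to 70 higher, 2 to 30 lower), 0 to 5 calls for the difference between tissues, and 48 to 95 past the study's rule. Replicate numbers share only a number: deviations of same-numbered cord arrays at 18 and 6 months correlated at -0.221, 0.032 and -0.26, and a fit with the replicate block gave 40 calls (33 higher, 7 lower). For the other moved counts without a stated reason, the cause was not tested either. Of the 54 named genes, 47 kept their call under quantile normalization, 42 under median centring, 29 without the filter, 29 with the muscle covariate and 30 with the replicate block.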
